A study of Mus musculus with 8 samples.

Results

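Major urinary protein (Mup) genes were followed in the liver of male mice of the outbred CD-1 stock. The mice had been fed 2500 ppm NaPB or a control diet (0 ppm) for 7 days. NaPB stands for sodium phenobarbital, a drug known to switch on the CAR receptor of liver cells. Each diet had 4 one-colour Agilent arrays, and the labels give no age. Separate animals for the arrays are not stated, so p-values measure the spread between these samples, which may be technical. The members were 8 genes taken by symbol, namely Mup1, Mup2, Mup3, Mup4, Mup5, Mup20, Mup21 and the pseudogene Mup-ps21. Of these, 7 had a feature (a spot for 1 probe) under their symbol, with 9 features among the 62976 of the table, and Mup1 was not analysed here. Mup4 and Mup20 had a pair of features each, called the brighter and the dimmer below. The family was chosen on the higher Mup-ps21 intensity of the NaPB diet in these same arrays. The differences of the members between the diets are therefore given as a description, with standard errors and without a test.

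Major urinary proteins are small secreted lipocalins, barrel-shaped carriers with a greasy pocket. In mice they are made chiefly in the liver of adult males, pass into the urine, bind volatile pheromones there and release them slowly. Their transcription in mouse liver is known to need pulses of growth hormone acting through STAT5, and it is further raised by androgens, thyroid hormone and glucocorticoids. The gene table of the GRCm38.p6 assembly, used here for names and order, places 44 Mup genes and pseudogenes between Mup4 and Mup21 on chromosome 4, 22 of them pseudogenes. The members lie in the order Mup4, Mup2, Mup1, Mup5, Mup20, Mup-ps21, Mup3 and Mup21, with Mup-ps21 inside the span of Mup20. The central genes of this cluster are known as near-identical copies, so a feature that carries 1 symbol may take up RNA of other copies. The probe sequences were not used here, and that part in the values was not tested.

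RefSeq promoter windows of GRCm38.p6, 250 bases before to 50 after the annotated start, were matched for 4 of the 7 measured members. They are shown because they let a reader see how alike the copies are upstream of the start, together with the window of Mup6, a further Mup gene on the array whose values come up below. Capitals mark TATATAA, letters typical of a core promoter, and each window is written 5′ to 3′ on the strand of its gene.
Mup4, chr4:59960618-59960917, minus strand: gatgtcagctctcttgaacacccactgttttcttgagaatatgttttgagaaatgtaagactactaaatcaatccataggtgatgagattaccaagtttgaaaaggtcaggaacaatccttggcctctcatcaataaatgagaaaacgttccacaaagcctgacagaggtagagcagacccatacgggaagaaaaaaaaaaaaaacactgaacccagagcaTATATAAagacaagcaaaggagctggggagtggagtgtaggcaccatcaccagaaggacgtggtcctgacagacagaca
Mup2, chr4:60139807-60140106, minus strand: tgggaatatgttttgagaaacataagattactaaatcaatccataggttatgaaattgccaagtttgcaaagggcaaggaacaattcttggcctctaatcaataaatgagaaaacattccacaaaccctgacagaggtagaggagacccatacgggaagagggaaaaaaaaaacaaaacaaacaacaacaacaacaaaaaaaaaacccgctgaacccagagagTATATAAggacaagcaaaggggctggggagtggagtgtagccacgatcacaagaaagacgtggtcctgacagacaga
Mup3, chr4:62087268-62087567, minus strand: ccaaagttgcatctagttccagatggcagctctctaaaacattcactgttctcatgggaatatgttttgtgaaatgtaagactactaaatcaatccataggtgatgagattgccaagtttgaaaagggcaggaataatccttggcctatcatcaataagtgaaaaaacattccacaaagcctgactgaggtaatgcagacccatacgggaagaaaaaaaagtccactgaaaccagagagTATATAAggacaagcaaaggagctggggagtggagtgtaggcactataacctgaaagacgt
Mup21, chr4:62150792-62151091, minus strand: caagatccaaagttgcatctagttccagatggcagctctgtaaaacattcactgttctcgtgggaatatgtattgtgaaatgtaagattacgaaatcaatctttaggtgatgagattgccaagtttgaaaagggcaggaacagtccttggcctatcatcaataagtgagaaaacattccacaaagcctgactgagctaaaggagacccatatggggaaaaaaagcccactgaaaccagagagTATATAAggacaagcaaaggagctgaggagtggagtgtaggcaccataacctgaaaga
Mup6, chr4:60003231-60003530, plus strand: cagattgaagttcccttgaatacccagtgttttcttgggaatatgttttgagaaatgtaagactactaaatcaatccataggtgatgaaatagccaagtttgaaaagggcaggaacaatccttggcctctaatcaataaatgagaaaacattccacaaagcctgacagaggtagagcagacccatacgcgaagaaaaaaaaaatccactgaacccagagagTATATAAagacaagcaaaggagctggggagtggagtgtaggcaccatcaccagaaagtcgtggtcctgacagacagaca
In pairwise global alignments without end gap penalties, the Mup3 and Mup21 windows were identical at 277 of 294 aligned bases (94.2%), and those of Mup4 and Mup2 at 243 of 265 (91.7%). Mup4 and Mup21, at the outer ends of the cluster, shared 236 of 273 (86.4%). The Mup6 window matched Mup4 at 277 of 298 bases (93%). The Mup2 window was 98.6% to 99.3% identical to those of Mup9, Mup17 and Mup19, other genes of the family on the array. TATATAA was present in all 4 member windows, and on either strand in 3.24% of the 32851 RefSeq windows. Its first base stood 29 bases before the annotated start in Mup4, 27 before it in Mup2, 11 before it in Mup3 and 8 before it in Mup21. TTCNNNGAA, the letters of a STAT binding site, was in none of the 4 windows and in 8.3% of all windows. AGGTCA, the half-site of several nuclear receptors, was in the Mup4 window alone (16.3% of all windows). AGAACA, a half-site of steroid receptors, was in the windows of Mup3 and Mup21 (19% of all windows). None of these 4 motifs overlapped another in a member window. A match describes letters within these windows and nothing more.

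Values below are the deposited spot intensities, which have no unit and had been scaled so that the 75th percentile of every array lay between 0.952 and 0.974. Intensities of different features depend on their probes, so no level of 1 feature is set against that of another. Differences are NaPB minus control on the log2 scale. Standard errors (SE) of the members come from a limma model fitted to all features of the table, and those of all other genes, with every p-value, from one fitted to 20738 genes through their brightest feature, with 4 arrays per diet in each. A pair of arrays stood apart from the rest over all genes, control replicate 1 and NaPB replicate 4. With weights estimated by limma, control replicate 1 had 0.308 and NaPB replicate 4 had 0.313, against 1.14 to 1.98 for the other 6, so the differences of the Mup features, and others that depend on this pair, are also given without it. The 99th percentile of intensity, a measure of how strongly the brightest features stand out, was 108, 120, 103 and 60.6 on NaPB replicates 1 to 4 and 118, 64.1, 99.4 and 78.4 on control replicates 1 to 4. Hepatocyte transcripts were looked at to check the liver label, and all 6 measured markers, Alb, Apoa1, Ttr, Cps1, Fgb and Tat, lay at or above the 95.6th percentile of every array. Their summed intensity was 802 to 1114.5 over the NaPB diet and 1006 to 1730 over the control diet. Within this sum Alb, for albumin, read 109 to 281 on the NaPB arrays against 320 to 611 on the control arrays, and Apoa1, for an apolipoprotein, 181 to 233 on the NaPB arrays against 322 to 589 on the control arrays. Neither overlapped between the diets and neither passed the test (limma adjusted p = 0.19 for Alb and 0.167 for Apoa1). Fgb, for fibrinogen, read 680 on NaPB replicate 4, with 161 to 191 on NaPB replicates 1 to 3, against 187 to 342 under the control diet. Fgb, Ttr, Cps1 and Tat overlapped between the diets, with log2 differences of 0.07, 0.06, −0.43 and −0.40, and none of them passed. A fall of the hepatocyte markers as a set cannot be read from Alb and Apoa1. In bulk RNA, fewer cells of a type and less RNA per cell cannot be told apart.

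Among the members, the pseudogene Mup-ps21 stood out on the side of NaPB and Mup21 on the side of the control diet, while the 7 other features overlapped between the diets. Mup-ps21 was 3.55-fold higher on the NaPB diet and Mup21 was 2.11-fold lower. Of the 9 member features, 3 had a difference above 0 and 6 below 0, with a median of −0.12, against a median of −0.01 over all features. Without control replicate 1 and NaPB replicate 4 the count turned to 6 above 0 and 3 below 0, with a median of 0.26. The diets did not overlap for 1 member feature with the NaPB arrays higher (2.43% of all features) and 1 with them lower (4.38% of all features). Since that contrast chose the family, nothing is read from these counts.

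**Figure D1:**
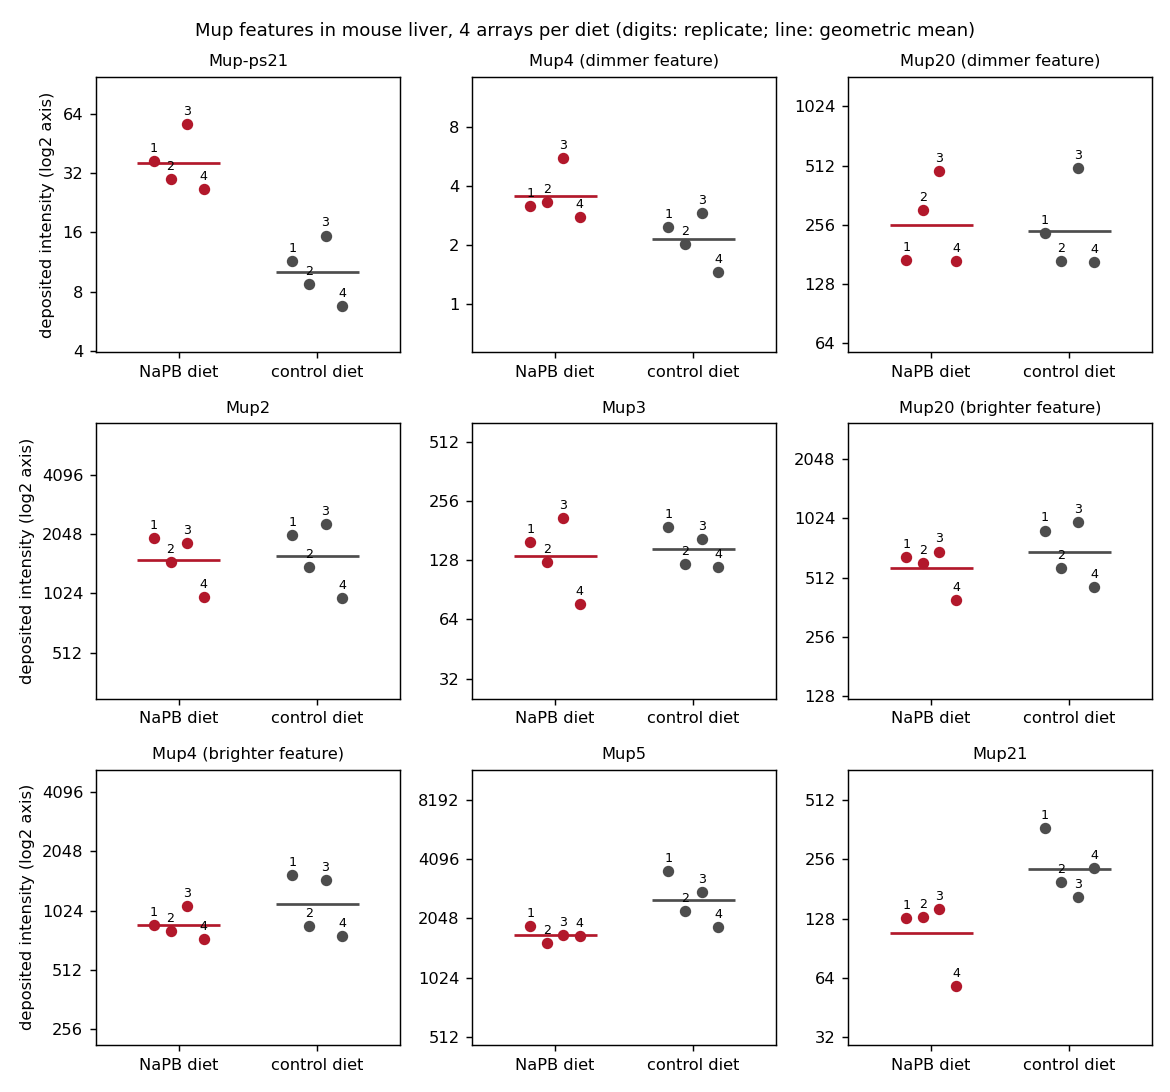
Deposited intensity (log2 axis, no unit) of the 9 member features on the 4 NaPB arrays and the 4 control arrays. Points are arrays with their replicate number and lines are geometric means. The diets are apart for Mup-ps21 (26.7 to 57.2 against 6.77 to 15.4) and for Mup21 (58.2 to 144 against 165 to 368), and they overlap for the 7 other features.

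Mup-ps21 is annotated as a pseudogene, a copy without a recognised protein product. Its feature read 36.9, 29.8, 57.2 and 26.7 on NaPB replicates 1 to 4, against 11.5, 8.78, 15.4 and 6.77 on control replicates 1 to 4. Every NaPB array was above every control array, and replicate 3 was the highest of each diet. The geometric mean was 36 on the NaPB diet (log2 SD 0.48, n = 4) and 10.1 on the control diet (log2 SD 0.51, n = 4), a log2 difference of 1.83 ± 0.36 (SE). Leaving out 1 array at a time gave 1.61 to 2.03, and leaving out the pair of arrays that stood apart gave 2.03. Its signal was well within the range of the arrays, between the 94.1th and the 98.3th percentile of all features and at most 1.43% of the highest value of an array.

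Mup6 and the dimmer feature of Mup4 were also above 0, and replicate 3 was again the highest of each diet for both. Mup6, a further family member that the choice of members did not use, read 5.62, 5.33, 8.93 and 5.03 on NaPB replicates 1 to 4, against 3.23, 2.25, 3.88 and 2.39 on control replicates 1 to 4. Here too all NaPB arrays lay above all control arrays. The log2 difference of 1.08 did not pass the test over all genes (SE 0.30, limma adjusted p = 0.164), and over the alternatives it passed with array weights (limma adjusted p = 0.0383). Mup4 is known in mice mainly from lacrimal and nasal glands. Its dimmer feature read 3.16, 3.32, 5.54 and 2.77 on NaPB replicates 1 to 4, against 2.48, 2.03, 2.91 and 1.47 on control replicates 1 to 4. The diets overlapped, since NaPB replicate 4 lay below control replicate 3. The log2 difference was 0.73 ± 0.33 (SE), and 0.91 without the pair of arrays. The dimmer Mup4 feature lay between the 82.6th and the 92.5th percentile of all features.

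The brighter Mup4 feature went the other way. It read 865, 807, 1084 and 735 on NaPB replicates 1 to 4, against 1547, 856, 1467 and 760 on control replicates 1 to 4. Control replicates 1 and 3 were high and the other 6 arrays overlapped. Its log2 difference was −0.35 ± 0.33 (SE), which was −0.11 without the pair of arrays. Features under the Mup4 symbol thus differed in sign, and the mean of the pair gave 0.19. A change of Mup4 RNA as a whole cannot be read from them.

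Mup21, at an outer end of the cluster, had the lowest difference of the 14 Mup features. Its feature read 129, 130, 144 and 58.2 on NaPB replicates 1 to 4, against 368, 196, 165 and 232 on control replicates 1 to 4. All NaPB arrays lay below all control arrays, with NaPB replicate 4 the lowest and control replicate 1 the highest. Its geometric mean was 109 on the NaPB diet (log2 SD 0.61, n = 4) and 229 on the control diet (log2 SD 0.50, n = 4), a log2 difference of −1.08 ± 0.38 (SE). Those extreme values fall on the 2 arrays that stood apart over all genes, and without them the difference was −0.55 ± 0.24 (SE), or 1.46-fold lower. The remaining arrays of the diets still did not overlap.

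Mup5 is known from lacrimal and salivary glands, and its feature was bright in liver. It read 1868, 1529, 1689 and 1673 on NaPB replicates 1 to 4, against 3556, 2226, 2791 and 1847 on control replicates 1 to 4. NaPB replicate 1 lay just above control replicate 4, and otherwise the NaPB arrays were lower. The log2 difference was −0.58 ± 0.29 (SE), and −0.42 without the pair of arrays. The NaPB arrays were close to each other, with a highest-to-lowest ratio of 1.22, against 1.93 among the control arrays. The feature reached 33% to 57.1% of the highest value of its array. Whether signals of this size were still proportional to RNA was not tested.

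The pheromone carrier MUP20, also called darcin, which makes male urine attractive to female mice, had overlapping diets on both features. Its brighter feature read 654, 604, 695 and 395 on NaPB replicates 1 to 4, against 888, 571, 979 and 459 on control replicates 1 to 4, a log2 difference of −0.27 ± 0.34 (SE). The dimmer feature read 170, 304, 482 and 169 on NaPB replicates 1 to 4, against 232, 167, 499 and 166 on control replicates 1 to 4. On it, replicate 3 of each diet was far above the others, and the log2 difference was 0.10 ± 0.46 (SE). Without the pair of arrays both features were above 0, at 0.03 and 0.28. Mup-ps21, which lies inside the span of Mup20, thus had a difference of 1.83 where the features of Mup20 had differences of −0.27 and 0.10.

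Mup2 belongs to the abundant urinary proteins of the central cluster. It read 1942, 1470, 1845 and 985 on the NaPB arrays, against 2018, 1387, 2293 and 971 on the control arrays, in order of replicate number. The ranges nearly coincided, and the log2 difference was −0.07 ± 0.36 (SE). Mup3 is a member from the edge of the cluster near Mup21. It read 159, 126, 209 and 77 on the NaPB arrays, against 189, 123, 163 and 119 on the control arrays. NaPB replicates 3 and 4 were the highest and the lowest of all 8 arrays, and the log2 difference was −0.12 ± 0.36 (SE). Without the pair of arrays the differences of Mup2 and Mup3 were 0.26 and 0.27. That of Mup2 was also above 0 when only control replicate 3 was left out (0.11). No direction is read for either gene.

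**Figure D2:**
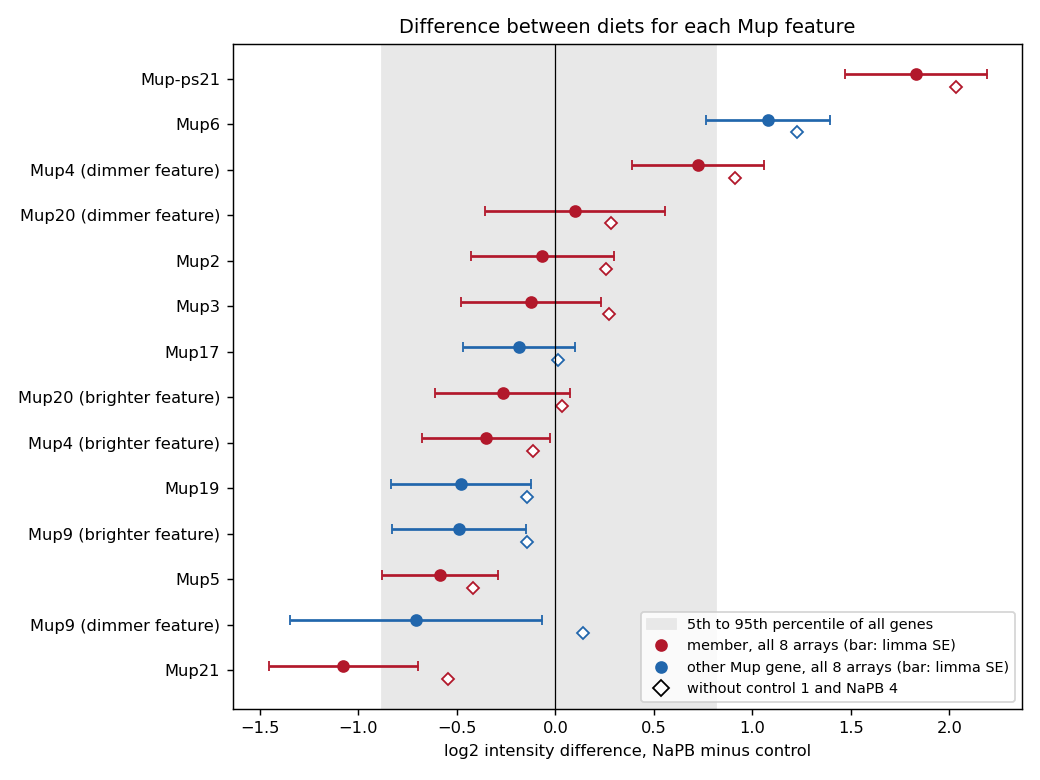
Log2 intensity difference, NaPB minus control, of all 14 Mup features (9 of members, 5 of other Mup genes). Filled points use all 8 arrays with SE bars from the limma fit to all features, open diamonds leave out control replicate 1 and NaPB replicate 4, and the grey band spans the 5th to the 95th percentile of all genes (−0.88 to 0.81). Mup-ps21 (1.83) and Mup6 (1.08) lie above the band, Mup21 (−1.08) below it, and without the pair of arrays Mup21 moves to −0.55.

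The other Mup genes on the array were Mup6, Mup9, Mup17 and Mup19, with 5 features. With all arrays, the genes other than Mup6 had differences below 0. Mup19 had a log2 difference of −0.48, the brighter feature of Mup9 one of −0.49 and Mup17 one of −0.19, and limma adjusted p over all genes was between 0.72 and 0.883 for them. Without the pair of arrays that stood apart these differences were −0.14 for Mup19, −0.14 for the brighter Mup9 feature and 0.01 for Mup17. The Mup19 feature reached 40.7% to 73% of the highest value of its array. The dimmer Mup9 feature read 9.65, 9, 11.6 and 1.15 on NaPB replicates 1 to 4, against 11, 9.46, 11.4 and 6.92 on control replicates 1 to 4. NaPB replicate 4 was far below all others, and the difference of −0.71 became 0.14 without the pair of arrays. Of the 14 Mup features in all, 4 had a difference above 0 and 10 below 0 with all arrays, and 9 above 0 and 5 below 0 without the pair.

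The members varied together from array to array within a diet. After the mean of each diet was taken off, the 36 pairs of member features had Pearson correlations over the 8 arrays between 0.16 and 0.98, with a median of 0.76. These are a description, since features on an array share its RNA, its labelling and its scaling. Mup-ps21 and the dimmer Mup4 feature had 0.96, and Mup2 and the brighter Mup20 feature had 0.98. Mup21 was the least tied to Mup-ps21, at 0.28, and Mup3 was the member closest to Mup21, at 0.77. With quantile normalized values 29 of the 36 pairs stayed above 0 and the median was 0.64. Over the 6 arrays without the pair that stood apart, 28 were above 0, the lowest was −0.86 and the median was 0.79.

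**Figure D3:**
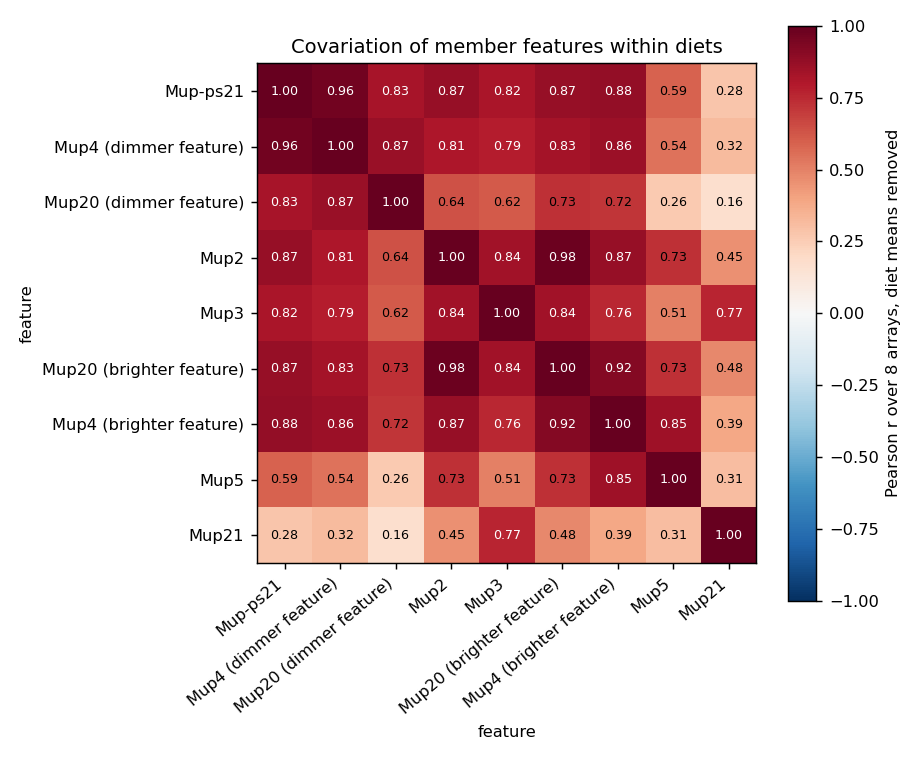
Pearson correlation between each pair of the 9 member features over 8 arrays after the mean of each diet was taken off. Colour and digits give the same value. The lowest pair is Mup21 with the dimmer Mup20 feature (0.16) and the highest is Mup2 with the brighter Mup20 feature (0.98).

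On single arrays, the 7 features other than Mup-ps21 and the dimmer Mup4 feature lay at a median of −0.35, −0.21, 0.01 and −0.68 log2 units from their control means on NaPB replicates 1 to 4. On control replicates 1 to 4 these medians were 0.38, −0.25, 0.41 and −0.52. Control replicates 1 and 3 were thus high and control replicates 2 and 4 low for most of the family. Control replicates 1 and 3 also had the highest 99th percentiles of their diet, and NaPB replicate 4 the lowest of the NaPB diet. The other arrays did not follow that order. NaPB replicate 2 had the highest 99th percentile of all arrays (120), but its median of −0.21 was below that of NaPB replicate 3 (103). Control replicate 4 (78.4) had a lower median than control replicate 2 (64.1). The part of these array-wide differences in the Mup values was not tested.

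**Figure D4:**
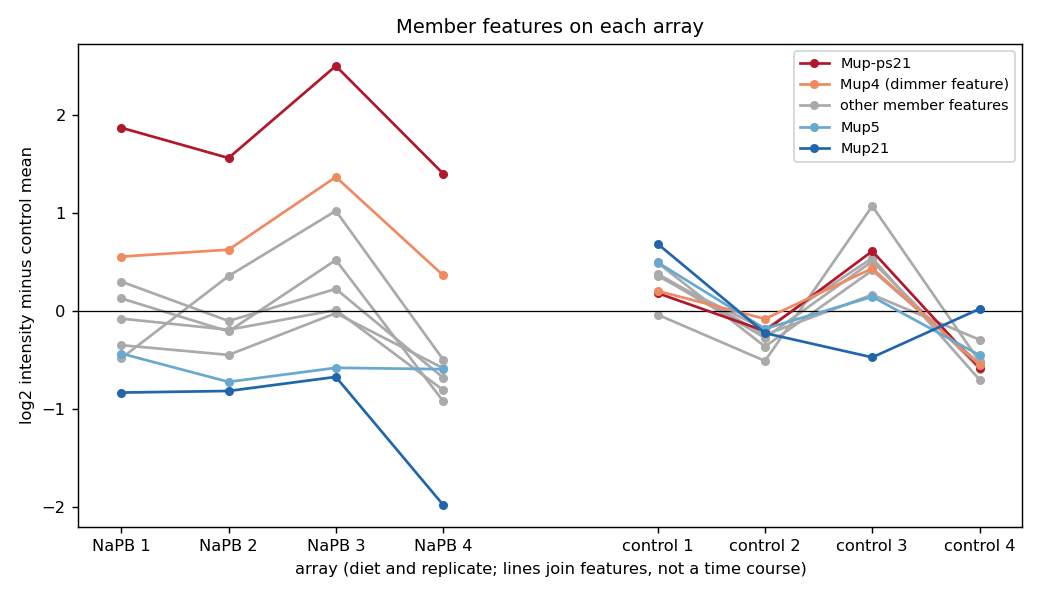
Log2 intensity of each member feature minus its own control mean, by array. Lines join the values of a feature within a diet. Mup-ps21 stays between 1.40 and 2.50 on all NaPB arrays, Mup21 drops to −1.98 on NaPB replicate 4, and most members sit above their mean on control replicates 1 and 3.

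The genes closest to Mup-ps21 over all 8 arrays, outside the members, were Llph, a nuclear protein gene, Mup6, Tmem176a, a membrane protein gene, Tvp23b, a Golgi protein gene, and the glutathione transferase gene Gstm5, with Pearson correlations of 0.96 to 0.98. This likeness contains the diet difference by which Mup-ps21 was picked. Of these, Gstm5 rose on the NaPB diet, 5.64-fold (log2 difference 2.49, SE 0.33, limma adjusted p = 0.00698). Llph (0.76, limma adjusted p = 0.254), Tmem176a (0.92, limma adjusted p = 0.153) and Tvp23b (0.79, limma adjusted p = 0.272) did not pass. With the diet means taken off, the closest genes were Pax2, Gpr158, Mab21l2, Armcx5 and Tapbp, at 0.94 to 0.98, and none of them passed the test between diets (limma adjusted p of 0.616 or higher). Gpr158 and Armcx5 were among the dim features. The closest genes here were picked as the highest correlations of all genes over only 8 arrays, so high values are a description and show no link. The mean of the 6 other member genes was closest to Mup9, BC024139, Zkscan5, Atg101 and Frg2f1 over the 8 arrays (0.97 to 0.98). With diet means off it was closest to BC024139, Pi4k2a, Mup9, Garnl3 and St6galnac6 (0.97 to 0.98). None of these passed either, with limma adjusted p from 0.454 to 0.963.

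A list of 33 hormone and transcription regulators of Mup genes held the growth hormone pathway, nuclear receptors and liver transcription factors. It also held growth hormone targets such as Igfals, and all its genes are called regulators here. Of the list 30 were measured, and none passed the limma test between the diets. In the fit of all genes 1.01% were called (limma adjusted p below 0.05), 0.391% higher and 0.617% lower, and 10.1% had an unadjusted p below 0.05. In the list 4 had an unadjusted p below 0.05, and the median log2 difference was −0.38, with 9 above 0 and 21 below 0, against a median of 0.01 over all genes. Without the pair of arrays the median of the list was −0.13, with 12 above 0 and 18 below 0. Ghr, the growth hormone receptor gene, read 34.8, 41, 32.4 and 14.3 on NaPB replicates 1 to 4, against 77.7, 41.8, 59 and 54.9 on control replicates 1 to 4. Its NaPB arrays lay below its control arrays, with NaPB replicate 2 close to control replicate 2. The geometric means were 28.5 on the NaPB diet and 56.9 on the control diet (log2 SE 0.37, limma adjusted p = 0.348), and with quantile normalization it passed (−1.09, limma adjusted p = 0.028). Without the pair of arrays the log2 difference of Ghr was −0.52 (limma adjusted p = 0.277).

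Igfals, a growth hormone target that encodes a carrier subunit of circulating IGF1, read 0.772, 1.26, 0.702 and 0.155 on NaPB replicates 1 to 4, against 2.67, 1.31, 1.38 and 1.48 on control replicates 1 to 4. Its diets did not overlap, but the lowest and the highest value fell on the arrays that stood apart. The log2 difference was −1.52 ± 0.57 (SE, limma adjusted p = 0.359), and it was −0.89 without NaPB replicate 4 and −0.66 without the pair. Dio1, which encodes an enzyme that converts thyroid hormone, read 2.26, 1.1, 2.91 and 1.2 on NaPB replicates 1 to 4, against 0.823, 0.499, 1.27 and 0.677 on control replicates 1 to 4. The diets overlapped, and the difference was 1.15 ± 0.40 (SE, limma adjusted p = 0.308). By the mean of the features of Dio1 it was 0.69 (limma adjusted p = 0.523).

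Male-biased liver genes, many of which share the dependence on growth hormone pulses with the Mup genes, had differences below 0 for 11 of 12 measured, and 2 of these fell. Over all genes 0.617% were called lower. An unadjusted limma p below 0.05 was found for 7 of the 12, against 10.1% of all genes. The median log2 difference was −1.09, against 0.01 over all genes, and −0.57 without the pair of arrays, with 10 of 12 below 0. An earlier result on these arrays was known when the list was drawn up, so its direction is not independent evidence. Susd4, a membrane regulator of complement, read 0.532, 1.1, 1.57 and 0.644 on NaPB replicates 1 to 4, against 11, 5.51, 9.3 and 3.59 on control replicates 1 to 4. Every NaPB array was below every control array, and the gene fell by 2.94 on the log2 scale (SE 0.45, limma adjusted p = 0.0129). Hsd3b5, a steroid dehydrogenase gene, was the other gene that fell (limma adjusted p = 0.0101), with NaPB replicate 4 at the floor of its array. Cyp7b1, an oxysterol hydroxylase gene, had −1.74 without passing the test (limma adjusted p = 0.142). Of the Mup genes through their brightest feature, Mup21 had a difference of −1.08, Mup-ps21 one of 1.83 and the other members −0.58 to −0.07. The dimmer features had 0.10 for Mup20 and 0.73 for Mup4. Without the pair of arrays Mup2, Mup3 and the brighter Mup20 feature were above 0, at 0.26, 0.27 and 0.03. Mup21, Mup5 and the brighter Mup4 feature stayed below 0, at −0.55, −0.42 and −0.11.

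Among the other lipocalin genes, which encode carriers of the same protein fold as the Mup genes, 1 of 21 measured rose and none fell, with a median log2 difference of 0.06. Over all genes 0.391% were called higher and 0.617% lower. The gene that rose was Orm3, of the orosomucoid acute phase proteins. It read 9.9, 9.87, 12.6 and 13.7 on NaPB replicates 1 to 4, against 0.766, 1.99, 1.66 and 1.3 on control replicates 1 to 4, and was 8.46-fold higher (log2 difference 3.08, SE 0.33, limma adjusted p = 0.00222). Ptgds, a prostaglandin D synthase gene, had a difference of −1.23 (limma adjusted p = 0.0746) and Lcn6, an epididymal lipocalin gene in mice, one of −1.30 (limma adjusted p = 0.0894). Both lay lower on every NaPB array than on any control array without passing the test. Lcn2, an acute phase lipocalin named after its values were seen, read 216 on NaPB replicate 4, with 8.4 to 18.5 on NaPB replicates 1 to 3, against 2.15 to 5.91 under the control diet. With all 8 arrays Lcn2 did not pass (log2 difference 3.08, limma adjusted p = 0.163). It passed when NaPB replicate 4 alone was left out (log2 difference 2.05, limma adjusted p = 0.0488), but not without the pair of arrays (2.00, limma adjusted p = 0.0666). NaPB replicate 4 was also high for Orm1 (58.4, against 21.2 to 24.7 on NaPB replicates 1 to 3) and Orm2 (86.2 against 31.3 to 33.9). Of the regulators, Socs3 was high there (2.62 against 0.198 to 0.523), as was the hepatocyte marker Fgb. Orm3 was only a little higher there than on the other NaPB arrays. The cause was not tested.

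**Figure D5:**
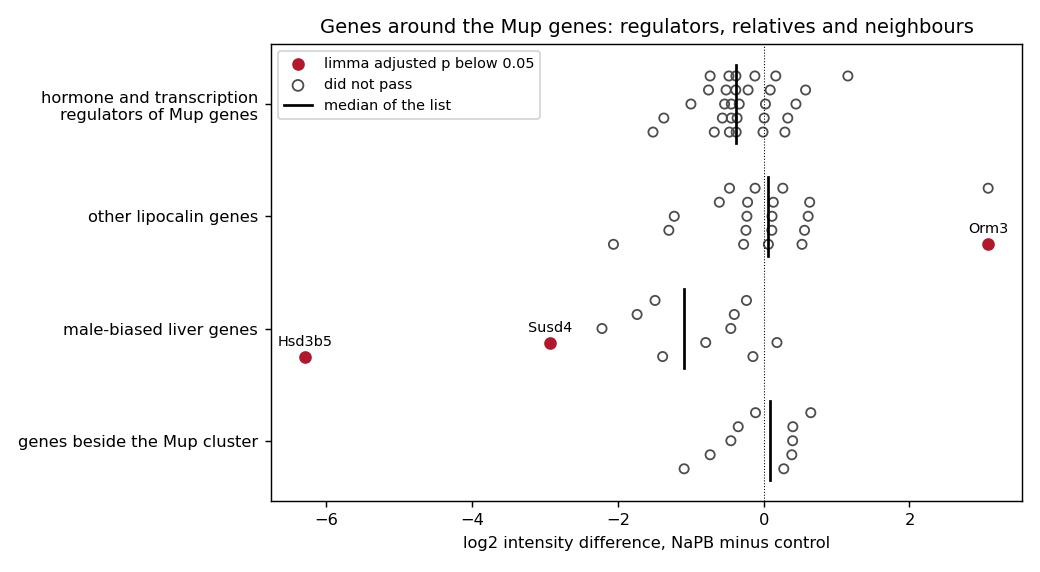
Log2 intensity difference, NaPB minus control, of the measured genes of 4 lists (30 regulators, 21 other lipocalin genes, 12 male-biased genes and 10 genes beside the Mup cluster). Points are genes through their brightest feature, filled where limma adjusted p was below 0.05, and bars are list medians. Orm3, Hsd3b5 and Susd4 are the genes that passed, and the median of the male-biased list is −1.09 with all arrays.

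The genes that flank the cluster were Ptbp3, Hsdl2, Inip, Snx30 and Slc46a2 beyond Mup4, and Zfp37, Slc31a2, Fkbp15, Slc31a1 and Cdc26 beyond Mup21. None of the 10 passed the limma test, 1 had an unadjusted p below 0.05, 5 were above 0 and 5 below 0, and the median log2 difference was 0.08, or −0.18 without the pair of arrays. The gene with the smallest p was Slc31a2, of the copper transporter family, at −1.09 ± 0.39 (SE, limma adjusted p = 0.319). Slc46a2 had 0.65 ± 0.34 and Zfp37, a zinc finger gene next to Mup21, 0.40 ± 0.67, which became −0.65 without the pair. The Zfp37 value on control replicate 1 was at the floor of that array.

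Markers of other cells that liver RNA could hold were looked at beside the Mup genes. The summed intensity of 6 pancreatic acinar markers was 3.97 to 4.17 under NaPB and 4.37 to 7.92 under the control diet. Of these markers Cela1, Cela2a and Cpa1 had differences above 0 and Ctrb1, Cel and Pnlip below 0, with a median of −0.09, and none passed the limma test. That of 5 Kupffer cell markers, with Timd4 at the floor of every array, was 11 to 12.7 under NaPB and 14.9 to 17.3 under the control diet. All 5 Kupffer cell markers had differences below 0, with a median of −0.44, but none passed the limma test or had an unadjusted p below 0.05. The acinar and Kupffer cell sums did not overlap between the diets, and their part in the Mup values was not tested. Sums of the other marker lists overlapped. Those of 5 cholangiocyte markers were 2.66 to 4.02 under NaPB and 1.39 to 4.05 under the control diet, and those of 5 stellate cell markers 18.6 to 33.1 under NaPB and 25.9 to 44.4 under the control diet. Endothelial markers, also 5, summed to 117 to 193 under NaPB and 92.5 to 191 under the control diet, and 3 red cell genes to 34.1 to 73 under NaPB and 45.1 to 79.6 under the control diet.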

How the data were processed

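Per the labels, total RNA was prepared with Isogen and RNeasy columns, labelled with Cy3 from the Low Input Quick Amp kit and hybridised to one-colour Agilent arrays. Scans were quantified with Agilent Feature Extraction 10.7, per the submitters' processing notes. The authors deposited 1 linear intensity per spot, scaled per array by a rule not given in the sources used here, as are background correction and flags. Symbols came from the platform annotation (31465 of 62976 features had 1, the rest none) and were updated through the GRCm38.p6 gene table, which changed 3282. Log2 values were taken with no pseudocount and no filter. limma 3.58.1 (R 4.3.3) was fitted with diet as its only term, once to all features and once to 20738 genes through their brightest feature, as two-sided tests with p-values adjusted by Benjamini-Hochberg across the genes and a threshold of 0.05. The fit was also run on simulated arrays, with independent normal values and, for each gene, the same spread on every array. Since a pair of the real arrays stood apart, that run does not show how the fit behaves on them. A value up to 2 times the lowest of its array counted as at the floor.

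The members, lists and tests were chosen with earlier results of these data known. Named are all members, of each list the genes called and the 3 with the smallest p, all neighbours of the cluster, and the 5 genes closest to Mup-ps21 and to the mean of the other members, with and without diet means. Lcn2, Orm1, Orm2 and Socs3 were named after their values were seen. The replicate numbers did not pair the arrays. Precision is limited by the number of arrays. NaPB replicate 2 held 3443 distinct values, against 62756 to 62839 on the other arrays, so its values are more coarsely rounded. Other steps used numpy 2.4.6, pandas 2.3.3 and, for plots, matplotlib 3.10.9 in Python 3.11.15.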

Additional observations from a re-analysis of the deposited data

Results flagged for a closer look

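Within each diet, the highest or lowest array was looked at again where its gap to the nearest other array took up most of the range (Dixon's test on the log2 scale), which chance gives in about 1 of 20 groups. Of 98 groups, 9 had such an array. Mup21 read 58.2 on NaPB replicate 4, where the other NaPB arrays lay between 129 and 144. The dimmer Mup9 feature read 1.15 on the same array, against 9 to 11.6 on the others of the diet. Atg101 (2.43 against 4.42 to 4.68) and Zkscan5 (1.27 against 1.94 to 2.04) were also low there. Tvp23b read 1.29 on NaPB replicate 3, against 0.813 to 0.84. Control replicate 1 was low for Snx30 (0.0823 against 0.276 to 0.339) and Zfp37 (0.0865 against 0.65 to 0.84), both neighbours of the Mup cluster. Both of these low values were at the floor of the array. Control replicate 1 was high for Hsd3b5 (22.6 against 16 to 16.9) and Igfals (2.67 against 1.31 to 1.48). Of these arrays, NaPB replicate 4 and control replicate 1 are the pair that stood apart over all genes.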

How the results depend on the processing

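The differences of the named genes, the counts of genes called and the median of the member genes were computed again with quantile normalization, with a common 75th percentile, with a common median, with a pseudocount of 1, without dim features, and with the mean of a gene's features. Further fits used trended, robust variances, weights per array, or a block on replicate number. Arrays were left out singly, and control replicate 1 together with NaPB replicate 4. Armcx5 and Gpr158 gave no value without dim features. The difference of Mup-ps21 was 1.61 to 2.05 over these 18 alternatives, that of Mup21 −1.23 to −0.55 and that of Mup5 −0.74 to −0.34. Those of Mup2, Mup3, Mup4 and Mup20 changed sign within a range of −0.53 to 0.27. Mup4 was 0.19 by the mean of its features. The median of the member genes, −0.27 with all arrays, was −0.47 to −0.09 with 1 array left out, 0.01 with array weights and 0.03 without the pair of arrays. The count of genes called, 209, was 328 with quantile normalization, 111 with a common median, 812 with array weights, 570 without the pair of arrays and 88 (without NaPB replicate 1) to 365 (without NaPB replicate 4) with 1 array left out. With quantile normalization 1 regulator passed, Ghr. Of the other lipocalin genes 3 passed with quantile normalization, 3 with trend and robust estimation, 4 with array weights and 1 to 2 with 1 array left out. The 2 male-biased genes passed, and no neighbour of the cluster did, in every alternative. The causes were not tested.

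The replicate numbers are no known pairing: same-numbered arrays had correlations of deviations from −0.29 to 0.23 and 1 of 4 NaPB arrays correlated best with its own number. With the replicate block 135 genes were called.

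Ptgds and Lcn6 passed with quantile normalization, with trend and robust estimation and with array weights, Mup6 and Tmem176a with array weights, and Llph and Tmem176a with a pseudocount of 1. By the mean of a gene's features, the difference of Llph was 0.23 (limma adjusted p = 0.835) and that of Lcn6 −0.64 (limma adjusted p = 0.395). That of Mup6 stayed at 1.08. Added after the data were seen were the correlations between member features with quantile normalized values and without the pair of arrays, and the counts and medians of the Mup features, regulators, male-biased genes and cluster neighbours without that pair. Marker sums were not computed again.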
